A study of Mus musculus with 18 samples.

Results

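The genes described here encode the extracellular and membrane components of the Wnt pathway in mouse mammary cells: Wnt ligands, Frizzled receptors, the co-receptors Lrp5 and Lrp6, the R-spondin receptors Lgr4 and Lgr5, the secreted antagonists of the Sfrp, Dkk and Wif families, and Axin2, a feedback target. They were chosen by symbol, without a filter on their measured values but with earlier results of these data known. Each was read from the brightest of its probe sets that map to no other gene. That gave 43 of the 19938 genes measured: 19 Wnt ligands, 10 Frizzled receptors, 2 co-receptors, 2 R-spondin receptors, 9 secreted antagonists and 1 feedback target.

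The study profiled total RNA from 6 groups of cells on whole-transcript arrays, with 3 arrays per group, in an in vitro model in which mammary tumour cells are grown with normal mammary epithelial cells. Comma-D is a line from normal mouse mammary gland, labelled normal, erbB2-negative and negative for phosphorylated erbB2, and was kept in DMEM/F12 medium with low serum, insulin and EGF. MMTV-neu is a line from tumours in which the mammary tumour virus promoter drives the neu (erbB2) oncogene, labelled cancer and positive for erbB2 and its phosphorylated form, and was kept in DMEM with more serum and neither factor. Both lines were also mixed at 1:50 or 1:1, grown in the medium of Comma-D, and parted by magnetic beads carrying an antibody to erbB2. The erbB2-negative fractions of both ratios are labelled normal. The 1:50 erbB2-positive fraction is labelled redirected, with erbB2 but without its phosphorylated form, and the 1:1 erbB2-positive fraction is labelled cancer, with both. The labels do not say which line is the larger share at 1:50, nor whether the unmixed lines went through the same separation. Line and medium cannot be told apart in a comparison of MMTV-neu with any other group. Nothing in the labels says that the arrays of a group came from separate cultures, so the p-values measure only the spread between these arrays, which may be technical.

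A Wnt protein is a lipid-modified secreted ligand that binds a Frizzled receptor and an Lrp co-receptor, and so keeps beta-catenin from being degraded. R-spondins acting through Lgr receptors keep Frizzled and Lrp proteins on the cell surface. Sfrp and Wif proteins bind the ligands, and most Dkk proteins bind the co-receptors. In the mammary gland the pathway is known for its part in branching and in the maintenance of basal and stem cells, and Wnt1 was found through insertions of the mammary tumour virus.

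All levels are deposited log2 values, and a difference of 1 is a change of 2-fold. Levels of different probe sets cannot be set against each other as amounts of RNA. The range of values differed between the groups over the whole array: the median gene was at 6.33 to 6.36 on the Comma-D arrays and 6.77 to 6.79 on the MMTV-neu arrays, and the SD across genes was 1.85 to 1.88 and 1.26 to 1.28. Replicate 1 had the narrowest spread of its group in the 1:1 erbB2-negative, 1:50 erbB2-positive and 1:1 erbB2-positive fractions, at 1.49, 1.64 and 1.32. The mean Erbb2 level, the gene of the antibody target, was 8.20 ± 0.11 (SD, n = 3) in Comma-D and 8.06 ± 0.14 in MMTV-neu, with overlapping arrays. The direction of that difference rests on the scaling: it was -0.14 as deposited (limma, adjusted p = 0.184), 0.59 after quantile normalization (0.000472) and 1.61 with arrays centred on reference genes (1.95e-08). At 1:50 the mean Erbb2 level was 8.22 ± 0.12 in the erbB2-positive and 8.27 ± 0.10 in the erbB2-negative fraction. At 1:1 these were 7.87 ± 0.04 and 7.80 ± 0.07, and the arrays of the fractions overlapped at both ratios. These are RNA levels, while the separation used the protein. The luminal keratin gene Krt8 was at 11.22 to 11.46 in MMTV-neu and 7.15 to 7.70 in Comma-D, while the epithelial marker Epcam was at 5.70 to 6.01 in MMTV-neu and at 9.45 to 9.57 in Comma-D. Both belong to a list of 10 luminal markers that went both ways. In MMTV-neu 5 of these were higher and 5 lower (limma, adjusted p under 0.05), against 56.4% and 30.4% of all genes. In RNA from whole fractions, fewer cells of a type and less RNA per cell cannot be told apart.

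Promoter sequences are shown for Lgr4, Fzd7, Fzd1 and Wif1, because they are the members lower in MMTV-neu than in Comma-D that the RefSeq promoter table holds (mouse build GRCm38.p6). Each is the stretch of 250 bases before the annotated start, 5′ to 3′ on the gene's strand. Capitals mark CTTTG or its reverse complement CAAAG, the core letters to which TCF and LEF factors, the nuclear partners of beta-catenin, are known to bind. The windows are chr2:109917397-109917646 on the plus strand for Lgr4, chr1:59481897-59482146 on the plus strand for Fzd7, chr5:4758217-4758466 on the minus strand for Fzd1 and chr10:121033754-121034003 on the plus strand for Wif1.
Lgr4: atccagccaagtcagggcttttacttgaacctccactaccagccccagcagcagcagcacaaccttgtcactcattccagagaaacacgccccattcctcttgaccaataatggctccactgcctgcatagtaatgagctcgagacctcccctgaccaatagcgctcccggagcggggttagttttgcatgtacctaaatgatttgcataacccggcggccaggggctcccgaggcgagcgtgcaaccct
Fzd7: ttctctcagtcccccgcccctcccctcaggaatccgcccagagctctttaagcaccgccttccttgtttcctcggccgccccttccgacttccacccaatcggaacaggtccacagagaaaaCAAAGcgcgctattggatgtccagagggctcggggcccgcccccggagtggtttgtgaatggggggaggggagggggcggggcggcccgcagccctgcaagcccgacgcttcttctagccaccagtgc
Fzd1: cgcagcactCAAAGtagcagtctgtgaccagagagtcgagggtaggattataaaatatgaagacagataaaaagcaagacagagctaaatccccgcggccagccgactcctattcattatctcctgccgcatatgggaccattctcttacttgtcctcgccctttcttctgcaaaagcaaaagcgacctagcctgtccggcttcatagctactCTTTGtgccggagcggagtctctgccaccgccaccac
Wif1: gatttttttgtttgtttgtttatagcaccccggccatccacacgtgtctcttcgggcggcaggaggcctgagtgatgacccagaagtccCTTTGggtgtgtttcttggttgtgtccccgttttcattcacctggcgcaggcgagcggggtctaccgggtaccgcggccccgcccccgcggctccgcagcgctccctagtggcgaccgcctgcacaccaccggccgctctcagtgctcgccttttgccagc
The core letters were absent from the Lgr4 window, occurred 1 time in that of Fzd7 (128 bases before the start), 2 times in that of Fzd1 (at 241 and 37 bases) and 1 time in that of Wif1 (at 161 bases). Of the 43 genes, 28 had an entry, with 31 windows, and 13 of these (41.9%) held the letters on either strand, against 48.6% of all 32851 windows of that length. The member windows held a median of 22 CG pairs and all windows a median of 6. A match is a run of letters and not a bound site, and its absence says only that the letters are not in the window.

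**Figure D1:**
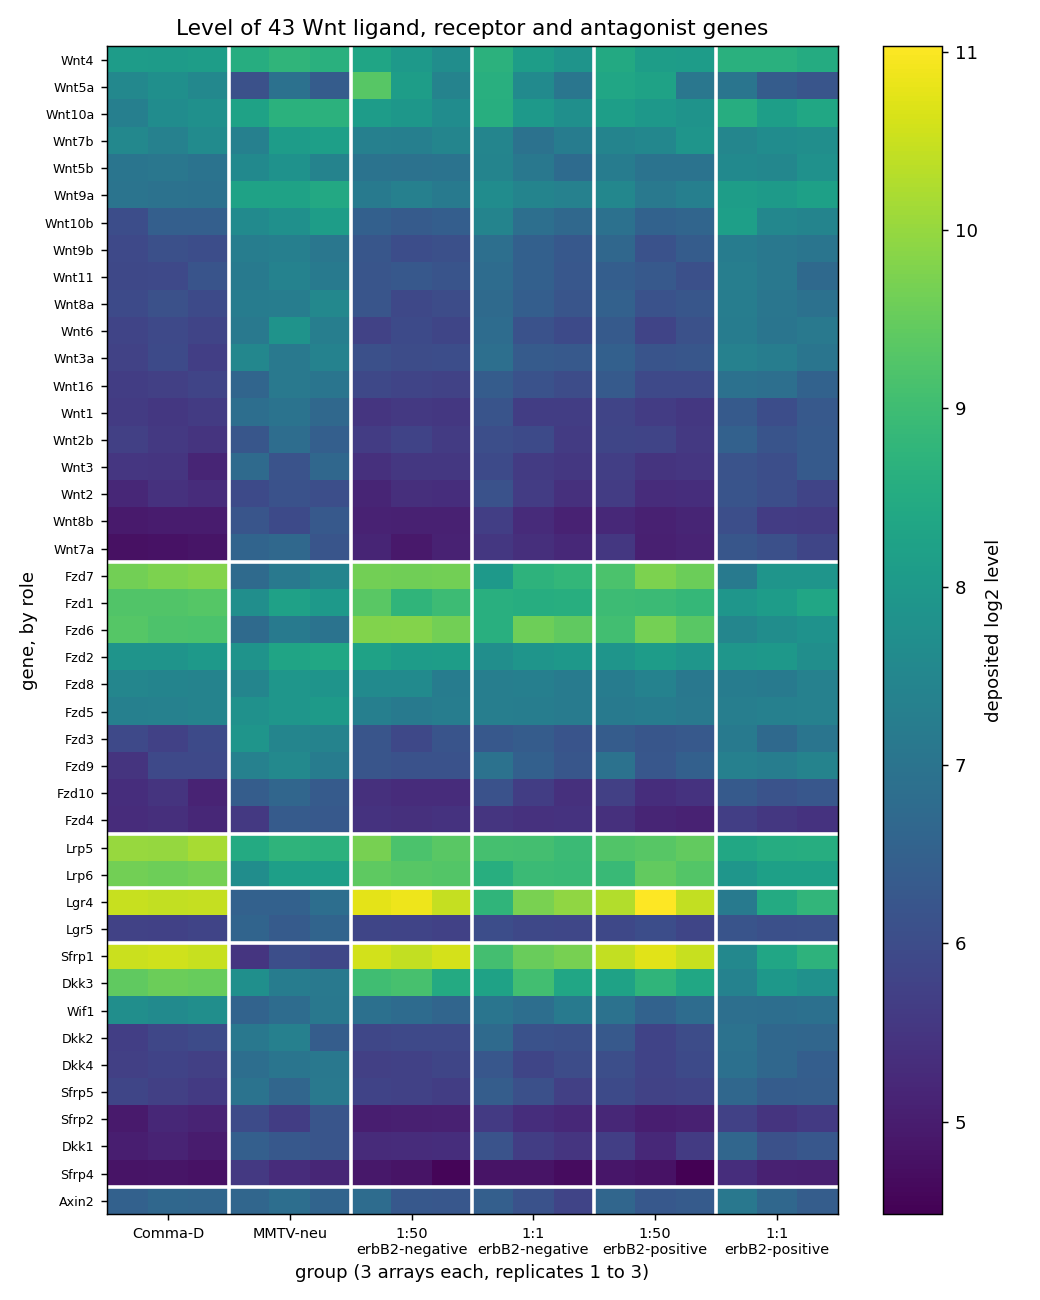
Deposited log2 level of the 43 genes (rows, by role, white lines between roles) on the 18 arrays (columns, 3 per group, replicates 1 to 3). Sfrp1 and Lgr4 lie above 10 in Comma-D and both 1:50 fractions and below 7 in MMTV-neu, while most Wnt ligands are brightest in MMTV-neu.

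MMTV-neu was set against Comma-D first, since every fraction was made from these lines. Most Wnt ligand genes were higher in MMTV-neu, while the antagonist Sfrp1, the R-spondin receptor Lgr4, the receptors Fzd7 and Fzd6 and, on the deposited scale but not with reference-gene centring, both co-receptors were lower there. By limma with Benjamini-Hochberg adjustment over all genes (adjusted p under 0.05), 40 of the 43 members were called, 30 higher and 10 lower. The background is high: 86.8% of the whole array was called (56.4% higher, 30.4% lower), and the members' number is close to it. The arrays of the lines did not overlap for 39 members and 87.2% of all genes. The median difference was 0.86 over the members and 0.40 over all genes. Among all 6 groups, 40 members and 90.4% of all genes were called by limma's F test. Other scalings were tried because the spread of values differed: quantile normalization, which gives every array the same distribution, and centring of each array on 9 reference genes. The reference genes were themselves lower in MMTV-neu (8 of 9, mean -1.75), so centring raised every gene's difference by 1.75 and moved the median of all genes from 0.40 to 2.15. The members then split into 35 higher and 4 lower, and after quantile normalization into 26 and 8.

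Among the ligands, 17 of 19 rose in MMTV-neu by 0.56 to 1.69 on the log2 scale. With centring 18 were called higher and 0 lower, and after quantile normalization 16 and 1. Markers of other cell types were higher in MMTV-neu as well: 6 of 6 endothelial, 5 of 7 leukocyte and 4 of 5 adipocyte genes were called higher. Over all genes 56.4% were called higher. With genes in 4 equal bands by their Comma-D signal, the shares were 92.7% and 88.1% in the 2 lowest bands. The mean level of the endothelial list was 5.24 to 5.26 in Comma-D, 6.14 to 6.27 in MMTV-neu and 5.81 to 5.98 in the 1:1 erbB2-positive fraction. The part of these markers in the ligand result was not tested. Wnt7a, a ligand of the female reproductive tract and limb, had the largest rise, with levels of 4.78, 4.81 and 4.84 in Comma-D and 6.59, 6.70 and 6.20 in MMTV-neu. The arrays of the lines did not overlap, and the difference was 1.69 ± 0.15 (SE; 3.22-fold; adjusted p = 3.74e-08, limma). Wnt1, the virus-activated oncogene, was at 5.54 to 5.62 in Comma-D and 6.71 to 6.98 in MMTV-neu. Wnt4, which acts downstream of progesterone in the mammary gland, had the smallest rise among these ligands. Its levels were 8.06 to 8.14 in Comma-D and 8.57 to 8.77 in MMTV-neu. Wnt4 was the only member with several probe sets, and these values are from the brighter of its 2. With the probe sets of each gene averaged, 39 of the 40 member calls in this comparison were kept and 1 was lost.

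The ligands differed in where the fractions lay between the lines. Wnt10b, known for early mammary development, was at 6.03 to 6.47 in Comma-D, 6.54 to 6.92 in the 1:50 erbB2-positive fraction, 7.45 to 8.18 in the 1:1 erbB2-positive fraction and 7.61 to 8.14 in MMTV-neu. Wnt3a, a classical activator of beta-catenin, was at 5.68 to 5.95, 6.18 to 6.50, 7.04 to 7.35 and 7.12 to 7.51 in the same order. For both genes the first of these groups and the last lay apart, and the 1:1 erbB2-positive arrays overlapped those of MMTV-neu. Wnt5b, a close relative of Wnt5a, was at 6.97 to 7.09 in Comma-D, 6.97 to 7.22 and 7.51 to 7.78 in the 1:50 and 1:1 erbB2-positive fractions, and 7.40 to 7.81 in MMTV-neu, where Wnt5a was lower and Wnt5b higher than in Comma-D. Wnt10a, known from skin and teeth, was at 7.31 to 7.77 in Comma-D and 8.26 to 8.68 in MMTV-neu, and its 1:50 erbB2-positive arrays (7.84 to 8.16) lay between them.

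Wnt5a, a ligand known for beta-catenin-independent signalling, was the single ligand that fell. Its levels were 7.55, 7.73 and 7.54 in Comma-D and 6.11, 6.94 and 6.39 in MMTV-neu, without overlap. The difference was -1.13 ± 0.45 (adjusted p = 0.0255, limma). The call was lost without Comma-D replicate 2 (-1.07, adjusted p = 0.0646), MMTV-neu replicate 1 (-0.95, 0.0965) or MMTV-neu replicate 3 (-1.08, 0.0631), and the sign turned with reference-gene centring (0.62, 0.193). Wnt7b was not called (0.35).

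Of the Frizzled receptors, 6 rose and 3 fell. Fzd7, a receptor known from mammary stem cells, was at 9.64, 9.73 and 9.81 in Comma-D and 6.75, 7.13 and 7.44 in MMTV-neu. Every MMTV-neu array lay more than 2 units below every Comma-D array, and the fitted difference was -2.62 ± 0.22 (6.16-fold; adjusted p = 2.52e-08, limma). Fzd6, known for tissue polarity, was at 9.30, 9.19 and 9.19 in Comma-D and 6.74, 7.16 and 6.97 in MMTV-neu, also with a wide gap, and differed by -2.27 ± 0.20 (adjusted p = 3.83e-08). Fzd1 fell by 1.27 (adjusted p = 6.29e-07), but was called 0.48 higher in MMTV-neu with reference-gene centring (adjusted p = 0.0299) and lost its call after quantile normalization (-0.38, 0.0699). Fzd3, known for axon guidance, rose the most of the receptors, from levels of 5.74 to 5.96 up to 7.42 to 7.91 (1.73 ± 0.14, adjusted p = 1.5e-08). Fzd2 was not called.

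Both co-receptors fell on the deposited scale. Lrp5 was at 10.03, 9.98 and 10.16 in Comma-D and 8.49, 8.74 and 8.69 in MMTV-neu, with no overlap (-1.42 ± 0.12, adjusted p = 2.43e-08, limma). Lrp6 was at 9.64, 9.58 and 9.66 in Comma-D and 7.68, 8.17 and 8.18 in MMTV-neu, again with no overlap (-1.62 ± 0.15, adjusted p = 8.14e-08). The direction of both rests on the scaling: with reference-gene centring the differences were 0.33 and 0.13 and neither was called, and after quantile normalization Lrp5 lost its call (-0.31, 0.0748).

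The 2 R-spondin receptors moved in opposite directions. Lgr4, the widely expressed one, was at 10.48, 10.42 and 10.45 in Comma-D and 6.51, 6.52 and 6.85 in MMTV-neu. The gap between the lines was several times the spread within either, and the difference was -3.82 ± 0.34 (14.1-fold; adjusted p = 3.93e-08, limma). Lgr5, a marker of stem cells in several epithelia, rose by 0.72 from a low level (5.74 to 5.83 in Comma-D, 6.36 to 6.59 in MMTV-neu), a call lost after quantile normalization (0.09, 0.446).

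Among the antagonists, 6 rose and 3 fell. Sfrp1, which binds Wnt proteins outside the cell, showed the largest difference of the 43 genes. Its levels were 10.50, 10.55 and 10.47 in Comma-D and 5.48, 6.06 and 5.89 in MMTV-neu, which leaves a gap of more than 4 units between the lines. The difference was -4.69 ± 0.23 (25.9-fold; adjusted p = 4.11e-11, limma), and -2.94 with reference-gene centring. Dkk3, a family member not known to bind the co-receptors like the others, was at 9.43, 9.55 and 9.52 in Comma-D and 7.75, 7.22 and 7.13 in MMTV-neu, without overlap (-2.14 ± 0.22, adjusted p = 2.27e-07). It was not called with centring (-0.39, 0.0935). Dkk1, Dkk2, Dkk4, Sfrp2, Sfrp4 and Sfrp5 rose by 0.52 to 1.27 on the deposited scale. After quantile normalization 4 antagonists were called higher: Sfrp2 lost its call (0.18, 0.161) and the sign of Sfrp4 turned (-0.05, 0.739).

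Axin2, which the pathway switches on and which then limits it, was at 6.52, 6.67 and 6.63 in Comma-D and 6.63, 6.84 and 6.59 in MMTV-neu. These values overlapped, and the difference was 0.08 (95% interval -0.31 to 0.47, adjusted p = 0.682, limma). It was -0.34 after quantile normalization and 1.83 with centring (adjusted p = 6.9e-07), so neither its direction nor its call is settled by these values.

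The direction of a member went with its array signal in Comma-D, as it did over all genes. Genes were put in 4 equal bands by that signal, which also depends on the probe set. In the lowest band all 5 members rose, as did 92.7% of all genes there, and in the next all 19 rose, against 88.1%. In the band above, 6 of 11 rose and 2 fell, against 39.0% and 34.5%, and in the highest band all 8 fell, against 83.7%. The median difference in the highest band was -2.20 for its members and -1.37 for all genes. Basal epithelial markers were also lower in MMTV-neu (6 of 8 called lower, 1 higher) and in the 1:1 erbB2-positive fraction (5 lower, 1 higher) than in Comma-D, but not in the 1:1 erbB2-negative fraction (0 lower, 1 higher), where 7 of the 8 members of the highest band were lower. The mean level of the 8 basal genes was 9.46 to 9.49 in Comma-D, 7.46 to 7.78 in MMTV-neu, 9.86 to 10.16 and 9.48 to 9.78 in the 1:50 and 1:1 erbB2-negative fractions, and 9.82 to 10.21 and 8.55 to 9.03 in the 1:50 and 1:1 erbB2-positive fractions. Their part in the members' differences was not tested.

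**Figure D2:**
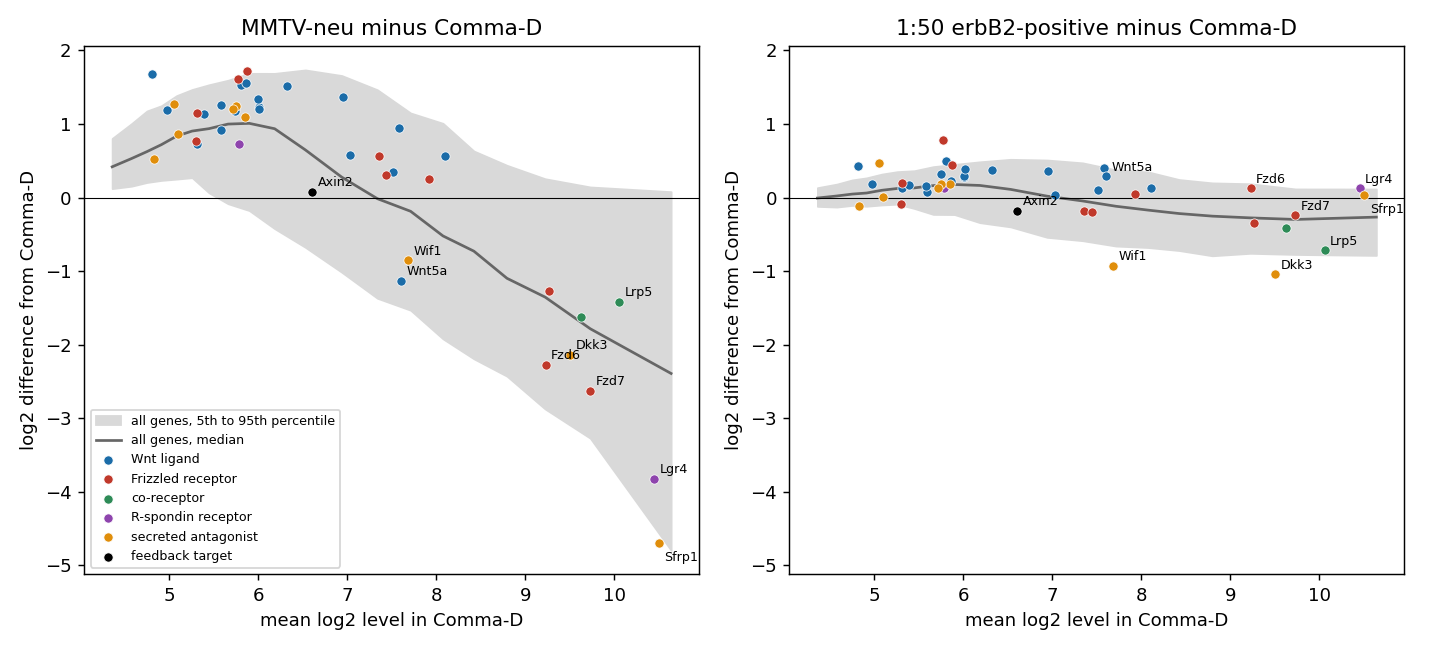
Difference from Comma-D against the mean level in Comma-D, both on the log2 scale, for MMTV-neu (left) and the 1:50 erbB2-positive fraction (right). Points are the 43 genes coloured by role, the line and grey area are the median and the 5th to 95th percentile of all genes. Sfrp1 at -4.69 and Lgr4 at -3.82 are the lowest points on the left, and both are near 0 on the right.

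The 1:50 erbB2-positive fraction, labelled redirected, was then set against MMTV-neu and against Comma-D. By limma, 39 members differed from MMTV-neu and 4 from Comma-D, and the whole array showed a similar contrast in its backgrounds. Against MMTV-neu, 9 were higher and 30 lower, where the background was 83.4% (25.8% higher, 57.6% lower), and 39 members and 81.4% of all genes had arrays that did not overlap. The split was 4 higher and 36 lower with centring. The ligands made up 17 of the members that were lower. Against Comma-D, 1 was higher and 3 were lower, with a background of 5.71% (1.17% higher, 4.54% lower), and 20 members and 37.5% of all genes did not overlap. Both comparisons use the same erbB2-positive arrays, and MMTV-neu differs from the others in medium.

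Sfrp1 was at 10.44, 10.73 and 10.47 in the 1:50 erbB2-positive fraction. These arrays overlapped those of Comma-D and lay far above those of MMTV-neu. The difference was 4.73 ± 0.23 from MMTV-neu (26.6-fold; adjusted p = 5.7e-11, limma) and 0.04 from Comma-D (95% interval -0.44 to 0.52, adjusted p = 0.938). Lgr4, at 10.28, 11.03 and 10.43, likewise overlapped Comma-D, with 3.95 ± 0.34 from MMTV-neu (adjusted p = 5.56e-08) and 0.13 from Comma-D (-0.58 to 0.84, 0.857). Fzd6 (9.06, 9.66 and 9.35) and Fzd7 (9.17, 9.75 and 9.57) were above every MMTV-neu array by similar amounts, 2.40 and 2.39 (adjusted p = 4.27e-08 and 1.41e-07). Wnt5a spread widely, at 8.35, 8.26 and 7.07, and was 1.42 ± 0.45 above MMTV-neu (adjusted p = 0.00746), but -0.09 with centring.

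The 4 members that differed from Comma-D were Wif1, Dkk3, Lrp5 and Fzd9. Wif1, a secreted protein that binds Wnt ligands, was at 7.72, 7.61 and 7.72 in Comma-D and 6.94, 6.53 and 6.80 in the 1:50 erbB2-positive fraction, with no overlap (-0.92 ± 0.13, adjusted p = 0.000459, limma). On the deposited scale it was lower than Comma-D in the other groups too: at 6.90, 6.78 and 6.60 in the 1:50 erbB2-negative fraction (-0.92, adjusted p = 0.000893), 7.03, 6.86 and 7.15 in the 1:1 erbB2-negative fraction (-0.67, 0.00207), 6.88, 6.85 and 6.91 in the 1:1 erbB2-positive fraction and 6.58, 6.80 and 7.11 in MMTV-neu (-0.85, 1.63e-05). With centring, its sign turned in MMTV-neu (0.90, 0.00044) and in the 1:1 erbB2-positive fraction (0.23, 0.324), and it lost its call in the 1:50 erbB2-positive fraction (-0.68, 0.16), the 1:50 erbB2-negative fraction (-0.90, 0.0537) and the 1:1 erbB2-negative fraction (-0.33, 0.207). After quantile normalization the calls in the 1:50 and 1:1 erbB2-negative fractions were lost (-0.73, 0.0526 and -0.47, 0.0764). The fibroblast marker Dcn had a mean level of 8.48 in Comma-D and 5.06 to 5.78 in the other groups, the lowest in the 1:50 erbB2-positive fraction, where 1 of 10 fibroblast markers was higher and 2 were lower. The list went both ways elsewhere too, with 5 higher and 5 lower in MMTV-neu, 2 and 5 in the 1:1 erbB2-positive fraction, 2 and 2 in the 1:1 erbB2-negative fraction and 1 and 2 in the 1:50 erbB2-negative fraction. The mean level of the 10 was 8.05 to 8.12 in Comma-D, 6.86 to 6.96 in MMTV-neu, 7.31 to 7.72 and 7.41 to 7.66 in the 1:50 and 1:1 erbB2-negative fractions, and 7.45 to 7.65 and 7.18 to 7.40 in the 1:50 and 1:1 erbB2-positive fractions. Their part in the Wif1 difference was not tested.

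Dkk3 was at 8.26, 8.76 and 8.38 in the 1:50 erbB2-positive fraction, between the unmixed lines and overlapping neither (-1.04 ± 0.22 from Comma-D, adjusted p = 0.0113, limma). Its call was lost without Comma-D replicate 3 (-1.03, 0.0518) or 1:50 erbB2-positive replicate 1 (-0.93, 0.0629). Lrp5, at 9.26, 9.32 and 9.46, also lay between the lines (-0.71 ± 0.12, adjusted p = 0.00171). Fzd9 was the single member that was higher, at 6.95, 6.27 and 6.48 against 5.47, 5.92 and 5.93 in Comma-D (0.79 ± 0.18, adjusted p = 0.0171), and its call was lost without Comma-D replicate 1 (0.64, 0.105) or 1:50 erbB2-positive replicate 1 (0.60, 0.108). The calls on Dkk3 and Lrp5 were lost after quantile normalization (-0.72, 0.198 and -0.44, 0.177) and with centring (-0.80, 0.0785 and -0.47, 0.261), and that on Fzd9 after quantile normalization (0.63, 0.089). Without single arrays the count of 4 ranged from 2 to 8: it was 8 without 1:1 erbB2-negative replicate 1 or 1:50 erbB2-positive replicate 2, and 2 without 1:50 erbB2-positive replicate 1.

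**Figure D3:**
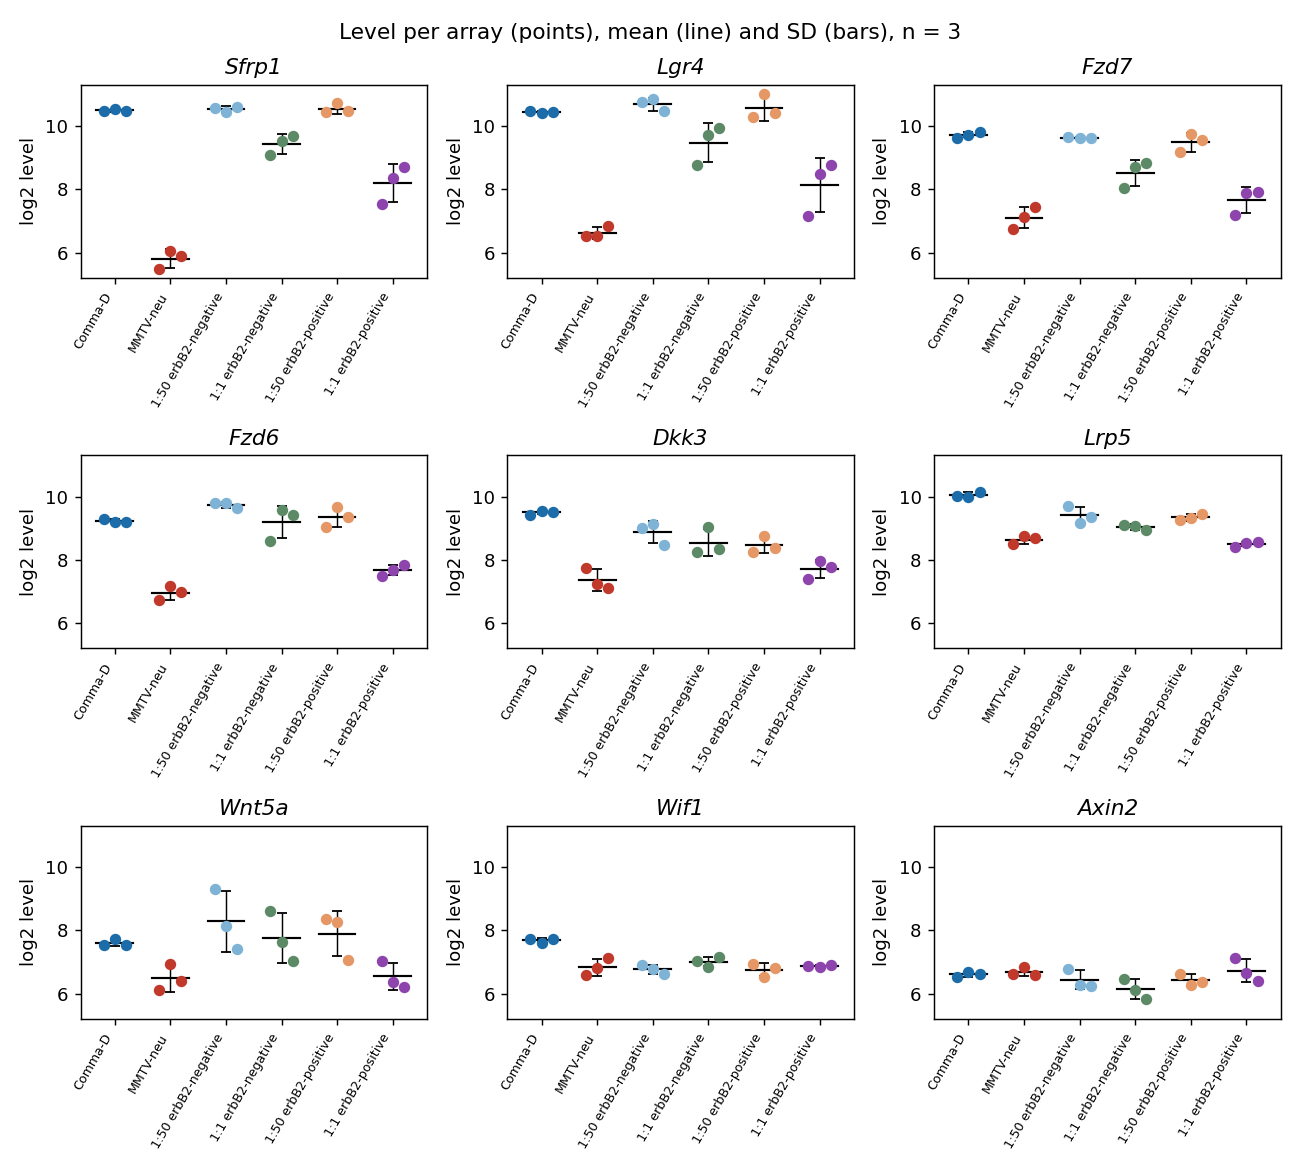
Log2 level of 9 of the genes on each array (points), with the mean (line) and SD (bars, n = 3), in the 6 groups. Sfrp1 runs from 10.50 in Comma-D to 5.81 in MMTV-neu with the 1:1 fractions between them, and Wif1 is highest in Comma-D.

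On the deposited scale the 1:1 erbB2-positive fraction, labelled cancer, lay nearer to MMTV-neu by the count of members called. It differed from Comma-D in 37 members, 27 higher and 10 lower, on a background of 78.3% (45.8% higher, 32.5% lower), and from MMTV-neu in 10, 3 higher and 7 lower, on a background of 18.3% (4.21% higher, 14.1% lower). Arrays did not overlap with Comma-D for 39 members and 85.1% of all genes, and with MMTV-neu for 10 members and 32.2%. With centring, 2 members were higher and 37 lower than in MMTV-neu. Of the 19 ligands, 18 were then called higher than in Comma-D and 18 lower than in MMTV-neu. The 3 members higher than in MMTV-neu on the deposited scale were Sfrp1, Lgr4 and Fzd6. Sfrp1 was at 7.54, 8.35 and 8.71, above every MMTV-neu array and below every Comma-D array (2.39 ± 0.23 from MMTV-neu, adjusted p = 2.3e-06, limma). Lgr4, at 7.16, 8.49 and 8.78, was likewise between the lines (1.51 ± 0.34, adjusted p = 0.0072). Fzd6 was at 7.50, 7.69 and 7.82 (0.71 ± 0.20, adjusted p = 0.0228), with the call lost without MMTV-neu replicate 1 (0.60, 0.0748), 1:1 erbB2-positive replicate 2 (0.70, 0.0669) or replicate 3 (0.64, 0.102), and a difference of -0.0026 with centring. The 7 that were lower than in MMTV-neu were the receptors Fzd3, Fzd4, Fzd5 and Fzd8, the ligands Wnt1 and Wnt7a, and Lgr5, with differences from -0.63 to -0.39. Fzd5, a receptor known from intestine and eye, was at 7.27, 7.33 and 7.37 against 7.79, 7.93 and 8.06 in MMTV-neu, without overlap (-0.60 ± 0.09, adjusted p = 0.000265, limma). Its Comma-D arrays, at 7.32 to 7.41, overlapped those of the 1:1 erbB2-positive fraction. Without 1:1 erbB2-positive replicate 2 the count against MMTV-neu was 6.

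Between the erbB2-positive fractions themselves, 33 members differed, 9 higher and 24 lower at 1:50 than at 1:1. The background was 71.4% (27.4% higher, 44% lower), and 37 members and 78.7% of all genes did not overlap. With centring the members split into 4 higher and 34 lower. Lgr4 was higher at 1:50 by 2.44 ± 0.34 (adjusted p = 2.15e-05, limma) and Sfrp1 by 2.34 ± 0.23 (adjusted p = 1.1e-06), in each case with every 1:50 array above every 1:1 array. Wnt5a was higher by 1.35 ± 0.45 (adjusted p = 0.0126). That call was lost without 1:50 erbB2-positive replicate 1 (1.12, 0.0505) or replicate 2 (1.17, 0.0535), and with centring (0.56, 0.254). In all 4 co-culture fractions Wnt5a was highest in replicate 1 and lowest in replicate 3. Replicate numbers were taken to pair the samples among these fractions, from their values and not from the labels.

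The erbB2-negative fractions, labelled normal at both ratios, were set against Comma-D and against each other. At 1:50 they differed from Comma-D in 2 members, both lower (background 1.68%, with 0.592% higher and 1.08% lower; 14 members and 27.7% of all genes did not overlap): Wif1, given above, and Lrp5, at 9.70, 9.17 and 9.36. Lrp5 lay below every Comma-D array (-0.65 ± 0.12, adjusted p = 0.00741, limma). Its call was lost without Comma-D replicate 3 (-0.60, 0.0553) or 1:50 erbB2-negative replicate 2 (-0.53, 0.0627), and with either scaling (-0.61, 0.0807 after quantile normalization and -0.63, 0.303 with centring). Without either of those arrays 1 member was called.

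At 1:1 the erbB2-negative fraction differed from Comma-D in 23 members, 15 higher and 8 lower, on a background of 35.7% (14.9% higher, 20.9% lower), and 31 members and 55.2% of all genes did not overlap. The members that were higher included 11 of the 19 ligands, by 0.39 to 0.71 (14 with centring and 3 after quantile normalization). With centring the members split into 21 higher and 4 lower, and after quantile normalization into 5 and 1. Fzd7 was at 8.03, 8.71 and 8.82, below every Comma-D array (-1.21 ± 0.22, adjusted p = 0.00123, limma), Sfrp1 at 9.08, 9.54 and 9.69 (-1.07 ± 0.23, adjusted p = 0.003) and Lrp5 at 9.11, 9.06 and 8.95 (-1.02 ± 0.12, adjusted p = 3.48e-05). The calls on Fzd7 and Sfrp1 were lost after quantile normalization (-0.72, 0.0779 and -0.60, 0.106). The count was 13 without Comma-D replicate 1 or 1:1 erbB2-negative replicate 1, and 15 without Comma-D replicate 3. Replicate 1 was the lowest array of its group for 6 of the 9 members that were at least 1 unit lower in MMTV-neu in the 1:1 erbB2-negative fraction, and for 8 of these 9 in the 1:1 erbB2-positive fraction.

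Set against each other, the erbB2-negative fractions differed in 13 members, 7 higher and 6 lower at 1:50, on a background of 30.3% (21.4% higher, 8.87% lower), and 25 members and 56.9% of all genes did not overlap. With centring the split was 3 and 0, and no member was called after quantile normalization. When the 12 co-culture arrays were fitted alone with a replicate block, an alternative chosen after the data were seen, the count was 24, 9 higher and 15 lower, with 47.3% of all genes called. Lgr4, at 10.77, 10.85 and 10.47 at 1:50 and 8.77, 9.72 and 9.94 at 1:1, did not overlap (1.22 ± 0.34, adjusted p = 0.0176, limma). Its call was lost after quantile normalization (0.77, 0.252), without 1:50 erbB2-negative replicate 2 (1.14, 0.0556) and without 1:1 erbB2-negative replicate 1 (0.87, 0.114). The count was 4 without 1:50 erbB2-negative replicate 1 or 2, 3 without replicate 3, 2 without 1:1 erbB2-negative replicate 1, 7 without replicate 2 and 22 without replicate 3.

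The fractions of 1 co-culture were compared at each ratio. At 1:50 no member was called between the erbB2-positive and erbB2-negative fractions by limma, where 0.01% of all genes were called, and 1 member had an unadjusted p under 0.05, as did 13.4% of all genes. Arrays did not overlap for 7 members and 29.1% of all genes. With a replicate block the count of members was also 0. At 1:1, 31 members differed, 22 higher and 9 lower in the erbB2-positive fraction, on a background of 56.1% (35.2% higher, 21% lower), and 26 members and 55% of all genes did not overlap. With centring the split was 34 and 3, and after quantile normalization 15 and 3. The members that were higher included 14 ligands (18 with centring and 12 after quantile normalization). Fzd6 was at 8.61, 9.58 and 9.42 in the erbB2-negative fraction, above all 3 erbB2-positive arrays (-1.53 ± 0.20, adjusted p = 4.72e-05, limma). Without 1:1 erbB2-negative replicate 3 the count was 19.

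Axin2 was called in this comparison. Its levels were 7.11, 6.66 and 6.41 in the 1:1 erbB2-positive fraction and 6.45, 6.13 and 5.82 in the erbB2-negative one. The arrays overlapped as groups, but within each replicate number the erbB2-positive array was the higher one (0.59 ± 0.19, adjusted p = 0.0136, limma). The call was lost without 1:1 erbB2-negative replicate 3 (0.44, 0.0867) or 1:1 erbB2-positive replicate 1 (0.40, 0.0916), and after quantile normalization (0.45, 0.064). At 1:50 its levels were 6.63, 6.28 and 6.37 in the erbB2-positive fraction and 6.79, 6.28 and 6.25 in the erbB2-negative one, which overlapped. Wnt5a was lower in the 1:1 erbB2-positive fraction, at 7.03, 6.38 and 6.21 against 8.61, 7.62 and 7.05, which did not overlap, the nearest arrays being at 7.03 and 7.05 (-1.22 ± 0.45, adjusted p = 0.0289). That call was lost without 1:1 erbB2-negative replicate 1 (-0.79, 0.12) or 2 (-1.29, 0.0547), 1:1 erbB2-positive replicate 2 (-1.14, 0.0768) or 3 (-1.05, 0.0871), and with centring (-0.52, 0.288). With the replicate block in the co-culture arrays, chosen after the data were seen, both were called, as were 65.8% of all genes. The Axin2 difference was then 0.59 ± 0.10 (adjusted p = 0.000657, limma) and the Wnt5a difference -1.22 ± 0.21 (adjusted p = 0.000778).

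Whether the ratio mattered differently in the fractions was tested as an interaction, the 1:50 minus 1:1 difference among erbB2-positive cells minus that among erbB2-negative cells. Sfrp1 (1.23 ± 0.32, adjusted p = 0.0485, limma) and Fzd6 (1.14 ± 0.28, adjusted p = 0.0407) were called, both with the larger difference in the erbB2-positive fractions, and the background was 2.75% (2.45% in that direction and 0.301% in the other). The count depended on single arrays. It was 0 without any Comma-D or 1:50 erbB2-negative array, without MMTV-neu replicate 3, 1:1 erbB2-negative replicate 2 or 3, 1:50 erbB2-positive replicate 2 or 3, or 1:1 erbB2-positive replicate 1 or 2. It was 1 without MMTV-neu replicate 2, 4 without 1:50 erbB2-positive replicate 1 and 14 without 1:1 erbB2-negative replicate 1. With a replicate block in the 12 co-culture arrays it was 8 (4 in each direction), with 12.4% of all genes called. The members added there were Fzd7 (0.72), Lrp6 (0.58), Axin2 (-0.60), Wnt9a (-0.55), Wnt7a (-0.49) and Sfrp4 (-0.42), at adjusted p-values from 0.0238 for Axin2 to 0.0492 for Wnt7a.

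**Figure D4:**
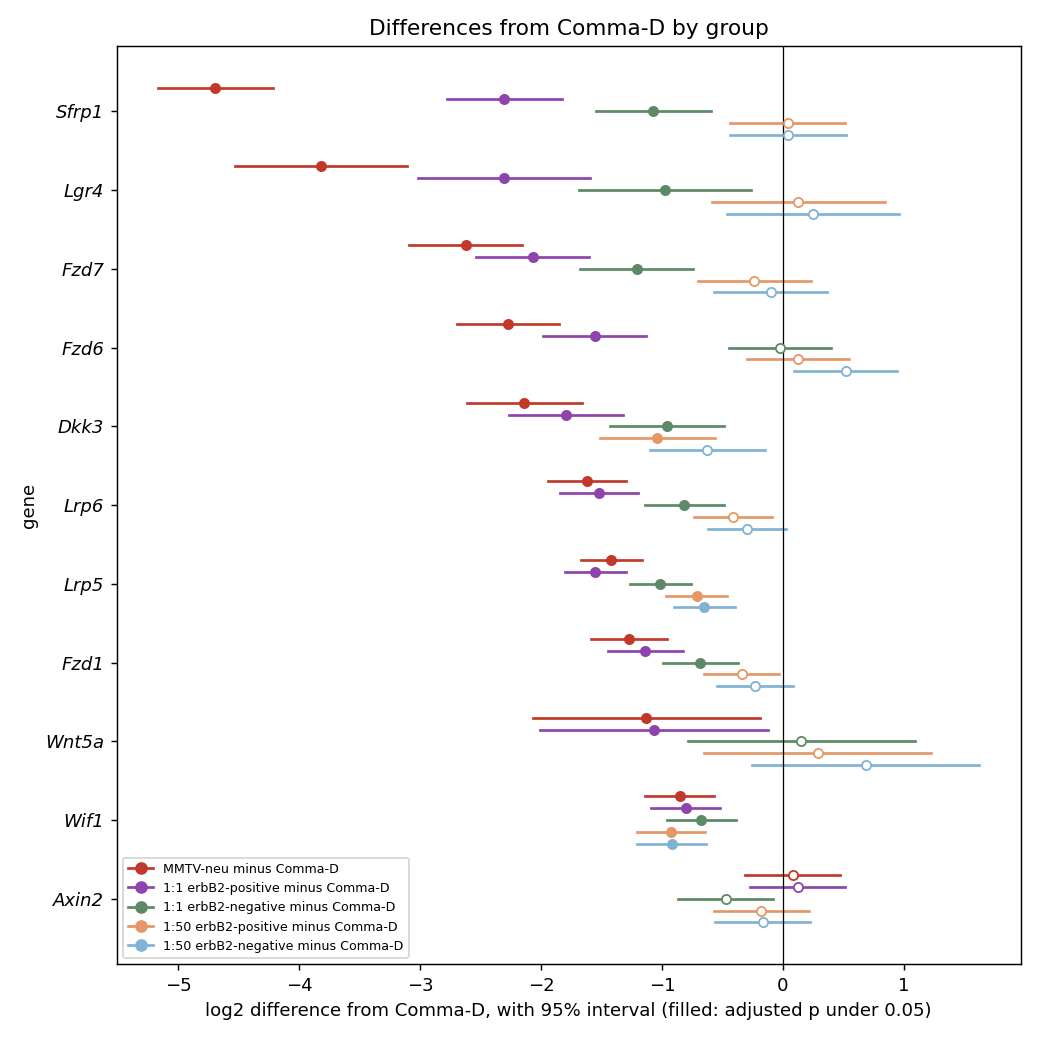
Log2 difference from Comma-D with its 95% interval for 11 of the genes in the other 5 groups, filled where the adjusted p was under 0.05. For Sfrp1 the order from the left is MMTV-neu at -4.69, 1:1 erbB2-positive, 1:1 erbB2-negative, and both 1:50 fractions at 0.04, while for Wif1 all 5 are close together.

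To place the fractions between the lines, each called member with a difference of at least 1 between them was given a position from 0% (Comma-D mean) to 100% (MMTV-neu mean). Positions were taken on the deposited scale only. For the 9 such members lower in MMTV-neu the median position was 3.77% in the 1:50 erbB2-negative, 8.97% in the 1:50 erbB2-positive, 44.9% in the 1:1 erbB2-negative and 83.9% in the 1:1 erbB2-positive fraction. Over all genes with a fall of that size the medians were 1.28%, 18.4%, 35.0% and 85.7%. For the 19 members higher in MMTV-neu they were 8.34%, 22.3%, 35.9% and 81.3%, against 5.0%, 19.2%, 34.3% and 79.4% over all such genes. Members differed among themselves: in the 1:1 erbB2-positive fraction Sfrp1 was at 49.1% and Lgr4 at 60.4%, while Lrp5 was at 109%. In the 1:50 erbB2-negative fraction the 9 members ran from -60.8% (Wnt5a) to 45.7% (Lrp5). With centring the difference between the lines turned for Fzd1 (0.48), Lrp5 (0.33), Lrp6 (0.13) and Wnt5a (0.62). Dkk3 was then not called (-0.39), so the positions of these members rest on the deposited scale.

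Other genes of the pathway were read from lists, and their counts in MMTV-neu minus Comma-D stand against the background of that comparison, 86.8% of all genes called (56.4% higher, 30.4% lower), with most genes of high signal lower. Both genes of Wnt release were lower in MMTV-neu than in Comma-D: Wls, which carries Wnt proteins to the cell surface (-3.95 ± 0.25), and Porcn, which attaches their lipid (-1.88 ± 0.32). With either scaling 1 of the 2 was called, and lower. Wls was also called in the interaction (1.39). Of the 11 transducers 8 were lower and 1 higher, among them Ctnnb1, which encodes beta-catenin (-2.45), but 9 were called higher and 1 lower with centring, and 4 and 2 after quantile normalization. Of the alternative receptors Ryk (-2.01) and Ptk7 (-1.10) were lower and Ror2 (1.64) higher, of 4, while 3 were called higher and 0 lower with centring. R-spondins and their receptors had 5 higher and 1 lower of 7, with Rspo1, a secreted enhancer of Wnt signalling, at 1.45 and Lgr6 at -0.78, and 7 were higher with centring.

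The nuclear factors had 3 higher and 3 lower of 7, with Pygo1 (1.48) and Lef1 (1.23) up and Tcf7l1 (-0.89) down, and 7 higher with centring. Other antagonists had 4 higher and 1 lower of 8, with Kremen2 at 1.69, Sost at 1.53 and Apcdd1 at -1.32, and 7 higher with centring. The common targets had 4 higher and 6 lower of 11, and did not move as a group: Nkd2 (-3.57), Cd44 (-3.46) and Myc (-2.46) were lower and Sp5 (1.96) was higher. They had 5 higher and 3 lower with centring. Between the 1:50 erbB2-positive fraction and Comma-D, Ror1 (-0.53) and Apcdd1 (-0.77) were called, both lower, and no other gene of these lists.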

How the data were processed

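The deposited log2 values came from RMA in R 3.1.2 with limma, per the submitters' processing notes. Not given in the sources used here are the level of summarisation, any filter and what was done with control probe sets. Of 35556 probe sets, 21789 carry a single gene, 1621 several and 12146 none in the platform annotation. RefSeq's table matched 21698 single-gene probe sets and changed 0 symbols. A gene was read from its single-gene probe set with the highest mean over 18 arrays, which left 19938 genes. Only Wnt4 among the members had several such probe sets. The table holds 0 columns of other samples. Arrays give no depth, and their number limits the precision.

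Groups and replicate numbers come from the sample titles. limma 3.58.1 in R 4.3.3 (lmFit, eBayes) was fitted to all 18 arrays with 12 residual degrees of freedom, two-sided, without a filter on low values. The code was also run on simulated data with independent noise and few genes changed. That run cannot show how the fit behaves with array-wide differences or paired arrays. Calls were made per comparison at 0.05 after Benjamini-Hochberg adjustment across the 19938 genes. SE and 95% intervals are from the fit to all 18 arrays unless a replicate block is named.

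The members and lists were chosen with earlier results of these data known, and no count over them is independent evidence. The rule for named genes allowed every member, with array values for the 29 members that varied over the groups and had a group mean above 6.59, the median gene. The members written out by array were chosen after their values were seen, and all 43 are plotted by array. From each other list up to 4 genes with the largest differences could be named. Of the pathway lists, Tcf7 and Wisp1 had no single-gene probe set.

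Same-numbered arrays deviated together in the 4 comparisons between co-culture fractions (r over all genes, across which values are not independent, 0.15 to 0.70 in every pair). In those with an unmixed line r ran from -0.26 to 0.25, and each had some pair that was not above 0.1. The rule asked for every pair to be above 0.1, so the numbers were taken to pair the co-culture fractions. Alternatives were quantile normalization, centring on 9 measured of 11 listed reference genes, a filter removing the lowest 40% of genes, averaging the probe sets of each gene, a trend and robust prior, a replicate block, the compared groups only, no MMTV-neu arrays, and each array left out in turn. Promoter sequences are from RefSeq, build GRCm38.p6.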

Additional observations from a re-analysis of the deposited data

Results flagged for a closer look

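The effect of the co-culture ratio differed between the fractions for 2 genes by the interaction test. For Sfrp1 the 1:50 minus 1:1 difference was larger in the erbB2-positive than in the erbB2-negative fractions by 1.23 on the log2 scale (limma, adjusted p = 0.0485), and for Fzd6 by 1.14 (adjusted p = 0.0407). Both calls were lost with reference-gene centring (0.75 and 0.67, adjusted p = 0.0728 for each) and without the MMTV-neu arrays (adjusted p = 0.0564 and 0.0528). They were also lost when only the co-culture arrays were fitted, without a replicate block (0.124 and 0.119). With a replicate block in those arrays, an alternative chosen after the data were seen, both were called (limma, adjusted p = 0.0221 and 0.0172). The call on Sfrp1 was also lost after quantile normalization (1.04, adjusted p = 0.0754). Over the fits that each left out 1 co-culture array the Sfrp1 difference ranged from 0.90 to 1.48 and the Fzd6 difference from 0.96 to 1.44.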

How the results depend on the processing

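Counts of called members (limma) that moved by over 1.5 times are given here. After quantile normalization the count was 1 in place of 4 for the 1:50 erbB2-positive cells against Comma-D, 0 in place of 2 for the 1:50 erbB2-negative cells against Comma-D, 6 in place of 23 for the 1:1 erbB2-negative cells against Comma-D, 0 in place of 13 between the erbB2-negative fractions and 18 in place of 31 between the 1:1 fractions. With centring on reference genes these were 1 and 0 for the first 2, 3 between the erbB2-negative fractions, 39 in place of 10 for the 1:1 erbB2-positive cells against MMTV-neu and 0 in place of 2 for the interaction. With only the compared groups fitted, the counts were 7 and 4 for the 1:50 erbB2-positive and erbB2-negative cells against Comma-D, 5 for the 1:1 erbB2-positive cells against MMTV-neu, 0 between the erbB2-negative fractions and 0 for the interaction, which was also 0 without the MMTV-neu arrays. Leaving out the lowest 40% of genes gave 6 for the 1:1 erbB2-positive cells against MMTV-neu. Only 6 of the 10 called members were still tested there, and all 6 kept their calls. A replicate block on all arrays gave 10 for the 1:50 erbB2-positive cells against Comma-D, where the numbers were not taken to pair the samples. A replicate block on the co-culture arrays gave 24 between the erbB2-negative fractions and 8 for the interaction, and changed no other count of members by over 1.5 times. Leaving out 1 array at a time gave 38 to 41 members for MMTV-neu against Comma-D, 37 to 41 and 2 to 8 for the 1:50 erbB2-positive cells against MMTV-neu and against Comma-D, 6 to 14 and 35 to 38 for the 1:1 erbB2-positive cells set beside those lines, 1 to 2 and 13 to 27 for the 1:50 and 1:1 erbB2-negative cells against Comma-D, 33 to 35 between the erbB2-positive fractions, 2 to 22 between the erbB2-negative fractions, 19 to 37 between the 1:1 fractions and 0 to 14 for the interaction. Among called members, 15 signs turned with centring: Lrp6 (0.13), Lrp5 (0.33), Fzd1 (0.48), Wnt5a (0.62) and Wif1 (0.90) in MMTV-neu against Comma-D, Dkk3 (-0.41), Fzd1 (-0.58), Lrp5 (-0.805), Lrp6 (-0.31) and Wnt5a (-0.093) in the 1:50 erbB2-positive cells against MMTV-neu, Fzd6 (-0.0026) and Wif1 (0.23) in the 1:1 erbB2-positive cells against MMTV-neu and Comma-D, Dkk3 (-0.04) between the erbB2-positive fractions, and Fzd1 (0.24) and Lrp5 (0.16) between the 1:1 fractions. After quantile normalization 5 turned: Sfrp4 in MMTV-neu (-0.05) and in the 1:1 erbB2-positive cells (-0.02) against Comma-D, Lgr5 (-0.20) in the latter, and Lrp5 in the 1:50 erbB2-positive cells against MMTV-neu (-0.13) and between the erbB2-negative fractions (-0.09). Axin2, not called in MMTV-neu against Comma-D, was at -0.34 there after quantile normalization. In the 1:50 erbB2-positive cells against Comma-D, leaving out 1 array gave -0.051 to 0.093 for Sfrp1 and -0.097 to 0.28 for Lgr4, neither called. The cause of these changes was not tested. Of 234 called pairs of a member and a comparison, 139 kept call and direction after quantile normalization and 187 with centring. No background signal is in the deposited values, so no limit of detection could be set for the members with low values.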
